A study of Mus musculus with 2 samples.

Results

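The genes described here are the nuclear-encoded genes of the respiratory chain and ATP synthase, chosen by symbol: every gene whose symbol starts with Nduf, Uqcr, Sdh or Atp5, or with Cox followed by a digit from 4 to 8. The rule took 98 of the 32285 features. They comprise 37 genes of complex I, 4 of complex II, 8 of complex III, 20 of complex IV, 17 of complex V (the ATP synthase) and 12 assembly factors whose symbols carry the same prefixes. Ndufa4 and its paralogue Ndufa4l2 were placed with complex IV, where the Ndufa4 protein is known to sit. Single cells of the whole mouse uterus were captured at gestational day 3.5, when the lining is close to the time at which it can accept an embryo. The control library had the genotype Mig-6f/f, floxed Mig-6 alleles with no Cre named, and the other library had the same floxed alleles with Cre at the progesterone receptor locus (Pgrcre/+Mig-6f/f). The sources used here do not give how many animals made up each library, and blood cells were depleted after trypsin digestion. Both libraries therefore share the floxed allele. The Cre acts where Pgr is active, the knock-in itself sits in 1 Pgr allele, and the presence of Cre cannot be told apart from the loss of Mig-6. Each group was 1 library, so every difference below is one between 2 libraries, with no test and no replicate error.

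Complexes I to IV pass electrons from NADH and succinate to oxygen. Complexes I, III and IV pump protons across the inner mitochondrial membrane on the way, and complex V uses the returning protons to make ATP. Most of their subunits are made from nuclear genes and imported, but 13 core proteins are made inside the mitochondrion from its own DNA, whose transcripts carry the prefix mt-. Complex II is the exception among the complexes, since all of its subunits are nuclear-encoded. Several complex IV subunits have isoforms restricted to certain tissues, such as muscle, testis or lung.

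The values are counts of unique molecular identifiers (UMIs), each marking 1 captured transcript. How far capture and read assignment differ between genes was not checked, so comparisons between genes are of counted UMIs only. The control held 44871170 UMIs in 4627 barcodes and the library labelled knockout held 23317904 in 3118. After filtering, 4303 and 2881 barcodes were kept, and 3 barcode sequences occurred in both libraries. Barcodes were classed by marker genes. Luminal epithelium (Epcam, Krt8, Krt18 and Cldn7 together at least 10 per 10000 UMIs) had 620 barcodes in the control and 1321 in the library labelled knockout. Glandular epithelium, which also carried the gland markers Prss29, Prss28, Spink1 and Cxcl15, had 102 and 98. Stroma (Dcn, Col1a2 and Col3a1) had 3221 and 1049, and all remaining barcodes, called other, had 334 and 404. Barcodes meeting both an epithelial and the stromal rule (26 and 9) were set apart. Luminal barcodes held Epcam at 608.1 and 627.6 UMIs per 1000000 UMIs of the class (CPM) against 0.949 and 3.55 CPM in stroma, and stromal Dcn was 1397 and 1545 CPM against 4.28 and 3.71 CPM in luminal barcodes. In glandular barcodes the class markers themselves were lower in the library labelled knockout. Prss29 was 14690 and 4341 CPM, Prss28 1368 and 382.1 CPM, Cxcl15 252.8 and 70.97 CPM, and Spink1 5541 and 4827 CPM. The glandular rule thus rests on genes that differ between the libraries. Depth differed between the libraries: the median was 12074 and 9845 UMIs per luminal barcode, and 8889 and 3637 per stromal barcode.

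Errfi1, the gene of Mig-6, checks the labels. In luminal barcodes it was 540.4 CPM (control) and 509.2 CPM (library labelled knockout), and in glandular barcodes 833.5 and 589.6 CPM. In stroma it went against the label, at 197 CPM (control) and 733.2 CPM (library labelled knockout), giving 3.72 (95% interval 3.56 to 3.89). The other barcodes showed the same direction, 120.3 and 455.8 CPM. UMIs outside the floxed part would still be counted, so these levels do not show whether the allele was cut. The second library is therefore called the library labelled knockout throughout. Ratios are that library over the control, and their 95% intervals are exact conditional binomial intervals that cover counting error only.

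The members took a larger share of the RNA in epithelium than in stroma, in both libraries. Summed over all 98 genes, they made up 3.02% of luminal UMIs in the control and 2.85% in the library labelled knockout. Glandular barcodes stood highest at 3.50% and 3.19%. Stroma held 2.09% and 1.89%, and the other barcodes 1.83% and 1.60%. The order glandular, luminal, stromal, other was thus the same in both libraries. Within the control the luminal sum was 1.45 times the stromal sum (1.44 to 1.45), and within the library labelled knockout 1.51 times (1.5 to 1.52). Single barcodes of luminal epithelium and stroma overlapped in part. The central 80% of luminal barcodes ran from 2.36% to 3.79% in the control and from 2.03% to 3.72% in the library labelled knockout. Those of stroma ran from 1.52% to 2.71% and from 1.25% to 2.57%. The lower quartile of luminal barcodes (2.625% and 2.365%) lay above the upper quartile of stromal barcodes (2.424% and 2.254%) in both libraries.

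**Figure D1:**
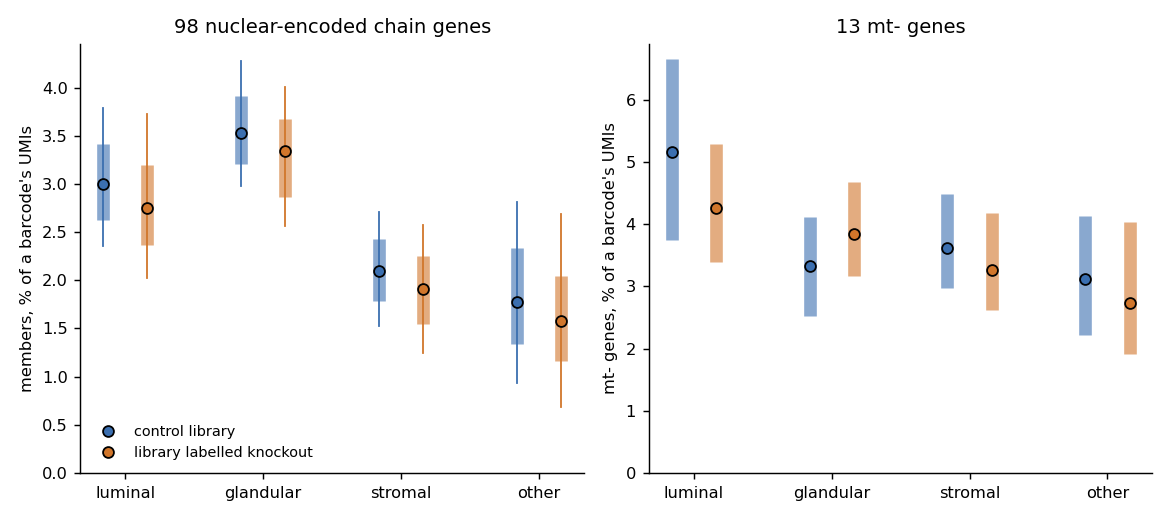
Share of each barcode's UMIs taken by the 98 members (left, percent) and by the 13 mt- genes (right, percent) in 4 classes of barcodes of the control library and the library labelled knockout; points are medians over barcodes, thick bars the central 50% and thin lines, on the left only, the central 80%. The members' medians are highest in glandular barcodes (3.53% and 3.34%) and lowest in other barcodes (1.78% and 1.58%), and the mt- median of the library labelled knockout is above the control's in glandular barcodes (3.84% against 3.34%) and below it in the remaining classes.

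The luminal excess over stroma was spread over all complexes. In the control it was 1.44 for complex I, 1.29 for complex II, 1.51 for complex III, 1.53 for complex IV, 1.37 for complex V and 1.16 for the assembly factors. The library labelled knockout gave 1.48, 1.25, 1.61, 1.61, 1.46 and 1.17 in the same order. Of 91 members compared, 75 were higher in luminal than in stromal barcodes of the control and 80 in the library labelled knockout, and 74 were higher in both. The matching share over all genes is not given, so these counts do not set the members apart from other genes. Ribosomal protein genes took 18.3% of luminal and 25.4% of stromal UMIs in the control, and 20.9% and 21.4% in the library labelled knockout. Their part in the luminal excess was not tested.

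By the interval bound nearest 1, the members that leaned most towards the lumen were Cox7a2, Ndufa11, Atp5j, Ndufaf3 and Cox8a. Cox7a2, the form of complex IV subunit VIIa made in most tissues, was 546.4 CPM in luminal and 234.4 CPM in stromal barcodes (control), and 536.3 and 209.2 CPM in the other library, giving ratios of 2.33 (2.25 to 2.42) and 2.56 (2.39 to 2.76). Cox8a, the common form of the smallest complex IV subunit, was 1565 CPM in luminal and 611 CPM in stromal barcodes (control), and 1410 and 651.5 CPM in the other library. Atp5j, a coupling subunit of the ATP synthase stalk, gave 2.48 (2.40 to 2.56) and 2.29 (2.15 to 2.45). These genes held a luminal level more than 2 times the stromal level in either library. Ndufaf3, which acts in the assembly of complex I, had low levels but a ratio of 3.24 (2.82 to 3.74) and 2.71 (2.09 to 3.58).

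A smaller set leaned the other way. Cox6c, a nuclear-encoded subunit of complex IV, was 578 CPM in luminal and 1293 CPM in stromal barcodes of the control, a stromal excess of 2.24 (2.17 to 2.30). In the library labelled knockout it was 578 and 781.2 CPM, an excess of 1.35 (1.30 to 1.41). Ndufaf2, an assembly factor that binds a late intermediate of complex I, gave a stromal excess of 2.28 (1.97 to 2.67) and 2.01 (1.70 to 2.37). The assembly factor Ndufaf7, a methyltransferase that acts early in complex I assembly, gave 1.65 and 1.81. Of the 12 assembly factors, Ndufaf2, Ndufaf6 and Ndufaf7 had intervals on the stromal side in both libraries, and Ndufaf3, Ndufaf4, Ndufaf8 and Sdhaf3 on the luminal side. Cox6b2, known as a testis form of subunit VIb, had 10 luminal and 548 stromal UMIs in the control, which is 1.07 and 18.6 CPM. The other library had 58 and 56 UMIs, 3.48 and 14.2 CPM.

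Between the libraries, the members' sum was lower in the library labelled knockout in every class when scaled to all UMIs. The ratio was 0.944 (0.940 to 0.949) in luminal barcodes, 0.912 (0.897 to 0.926) in glandular, 0.903 (0.896 to 0.910) in stromal and 0.879 (0.863 to 0.895) in other barcodes. The luminal direction rests on the scale: relative to the median ratio over all genes with at least 100 UMIs (log2 of -0.11 in luminal barcodes), the luminal sum was 1.02 times the control, while the other classes stayed below 1, at 0.932, 0.914 and 0.858. Ribosomal protein genes, which fill a large part of the scale, differed in opposite directions in the epithelial and non-epithelial classes, from 18.3% to 20.9% of luminal UMIs and from 25.4% to 21.4% of stromal UMIs. Malat1, a nuclear RNA often read as a sign of cell integrity, went from 0.706% to 0.362% in luminal barcodes and from 1.04% to 1.67% in stroma. Their part in the members' difference was not tested. Among barcodes of 3000 to 8000 UMIs only, the sums gave 0.873 in luminal and 0.847 in stromal barcodes, although only 55 control luminal barcodes lie in that window.

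By complex, the lowest stromal ratio was that of complex IV, 0.859 (0.846 to 0.872), and its luminal ratio was 0.902 (0.895 to 0.910). The lowest luminal ratio was that of complex II, 0.886 (0.852 to 0.922), which gave 0.912 in stroma. Complex III was nearly level in the lumen, 0.992 (0.979 to 1.01), but 0.932 (0.911 to 0.953) in stroma. Complex I gave 0.956 and 0.931, complex V 0.958 and 0.902, and the assembly factors 0.987 and 0.978, luminal and stromal. On the scale of the median gene the luminal values passed 1 for complexes I (1.03), III (1.07) and V (1.04) and the assembly factors (1.07), and stayed below it for complexes II (0.960) and IV (0.977), while the stromal values stayed below 1 for all of them. In glandular barcodes complex I was lowest, at 0.864 (0.838 to 0.891).

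Single members were called different when their CPM ratio reached 1.5-fold and they had at least 100 UMIs over both libraries in the class. Few did. In luminal barcodes 90 members had enough UMIs, of which 1 was higher and 3 were lower in the library labelled knockout. Over all 10044 genes with as many luminal UMIs, 8.84% were higher and 19.9% lower by that rule. In stroma 0 of 93 members were higher and 3 lower, beside 10.3% and 15.7% of 11151 genes. In glandular barcodes 0 of 81 members were higher and 0 lower, beside 7.98% and 8.71% of 3523 genes. In other barcodes 0 of 79 members were higher and 3 lower, beside 8.70% and 7.35% of 5140 genes. The genes behind these shares were not matched to the members in level. The median log2 ratio of members was -0.08 in luminal barcodes, beside -0.11 for all genes with enough UMIs. It was -0.12 beside -0.02 in stroma, -0.14 beside -0.03 in glandular and -0.16 beside 0.04 in other barcodes. Members short of 100 UMIs numbered 8 in luminal, 5 in stromal, 17 in glandular and 19 in other barcodes, and were mainly the tissue-restricted isoforms and the assembly factors.

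**Figure D2:**
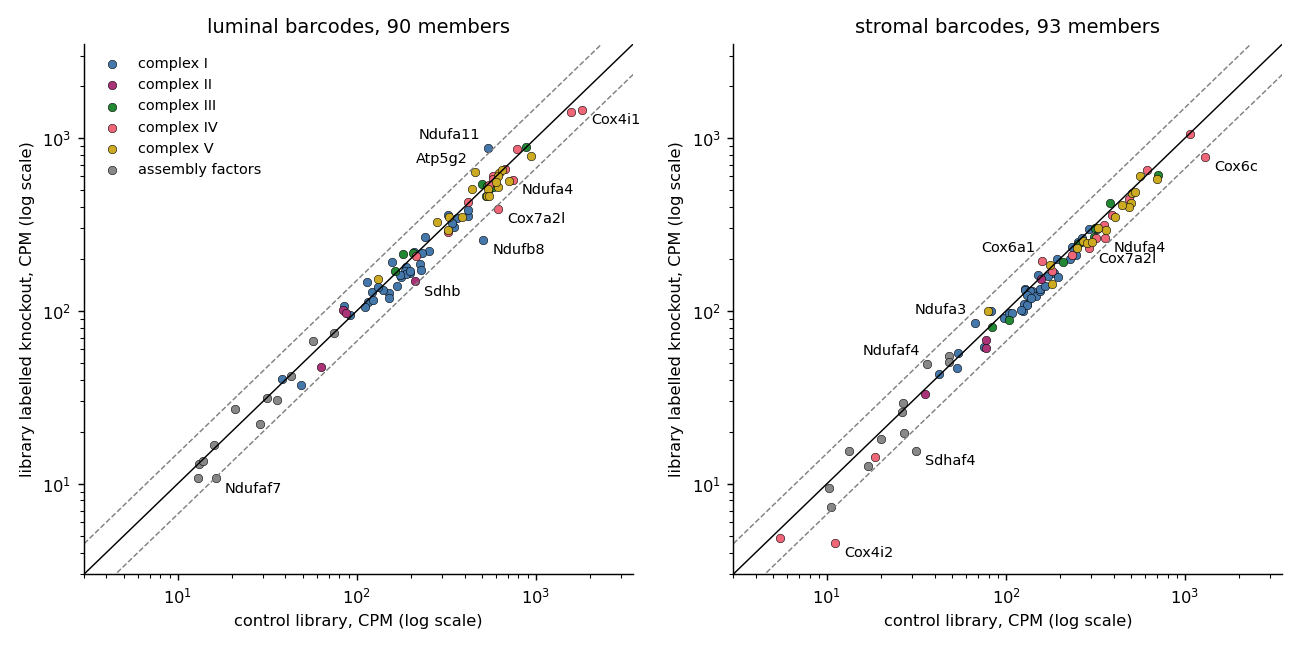
Level of each member in the control library (x, CPM, log scale) and in the library labelled knockout (y, CPM, log scale), for the 90 luminal and 93 stromal members with at least 100 UMIs; colours mark the complex, the solid line equality and the dashed lines 1.5-fold. Most points lie inside the dashed lines, with Ndufa11 above them and Ndufb8, Cox7a2l and Ndufaf7 below them in luminal barcodes, and Cox6c, Sdhaf4 and Cox4i2 below them in stroma.

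In luminal barcodes the 2 widest gaps were both in complex I and pointed in opposite directions. Ndufa11, an accessory subunit of the membrane arm, was 540.5 CPM (control) and 880.2 CPM (library labelled knockout), giving 1.63 (1.58 to 1.68). It was level in stroma, at 234.6 and 234.8 CPM, and in other barcodes, at 177.1 and 178.5 CPM, and gave 421.1 and 483.1 CPM in glandular barcodes. Ndufb8, another accessory subunit of the membrane arm, was 508.1 CPM (control) and 257.3 CPM (library labelled knockout), giving 0.506 (0.486 to 0.528). Its level was also lower in glandular barcodes (613.9 and 425.8 CPM), in stroma (196.4 and 157.7 CPM) and in other barcodes (184.3 and 122.9 CPM). So 2 subunits of the same complex that stood at like levels in the control lumen differed by over 3 times in the library labelled knockout. The gap was seen in each UMI tertile, cut within each library. Luminal Ndufb8 ran from 484.6 to 550.3 CPM over the control tertiles and from 252.9 to 272.5 CPM over the others, and Ndufa11 from 502.6 to 561.5 and from 867.7 to 942 CPM. The tertile medians ran from 8870 to 21701 UMIs in the control and from 5419.5 to 21469 UMIs in the library labelled knockout, so depth was not matched.

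Cox7a2l, a Cox7a-related protein that joins complexes III and IV into supercomplexes, was 614.8 CPM (control) and 390.1 CPM (library labelled knockout) in the lumen, giving 0.634 (0.612 to 0.658). In stroma it was 291.1 and 230.3 CPM, a ratio of 0.791 (0.738 to 0.847), and in glandular barcodes 717.4 and 730.1 CPM. The 2 epithelial classes thus parted for this gene. From the lowest to the highest UMI tertile, luminal Cox7a2l was 742.3, 647.9 and 556.6 CPM in the control. In the library labelled knockout it was 393.3, 391.3 and 388.9 CPM. The gap was narrowest in the highest tertile, where the median depths were 21701 and 21469 UMIs. Ndufaf7 was called lower at a low level, 16.4 and 10.8 CPM. Its luminal ratio was 0.659 (0.529 to 0.823), and it stayed past 1.5-fold in 6 of 11 alternative analyses.

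Atp5g2 missed the 1.5-fold rule but differed in sign between classes. It is 1 of 3 genes, with Atp5g1 and Atp5g3, that encode the same mature c subunit of the proton-driven ring of the ATP synthase. How well reads of the 3 transcripts were told apart was not checked. Luminal Atp5g2 was 459.3 CPM (control) and 633.6 CPM (library labelled knockout), giving 1.38 (1.33 to 1.43), while stromal Atp5g2 was 489 and 397.3 CPM, a ratio of 0.813 (0.771 to 0.856). Luminal Atp5g1 went the other way, 939.8 and 789.4 CPM, and Atp5g3 gave 281.4 and 327.7 CPM. In the control lumen Atp5g1 was therefore about 2 times Atp5g2, and in the library labelled knockout the pair stood closer. In stroma all 3 were lower, with ratios of 0.828, 0.813 and 0.785 for Atp5g1, Atp5g2 and Atp5g3.

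Ranked by the interval bound nearest 1, the luminal members that came next on the higher side were Ndufa3 at 1.29 (1.20 to 1.38), Ndufa1 at 1.25 and Ndufs3 at 1.22, all of complex I. The same ranking gave Uqcrfs1, the Rieske iron-sulfur subunit of complex III, at 1.18, and Atp5c1, the central stalk subunit of complex V, at 1.16. The lower ones included Sdhb, the iron-sulfur subunit of complex II, with 210.3 and 148.3 CPM, a ratio of 0.705 (0.664 to 0.749). The complex II flavoprotein Sdha was 83.6 and 101.2 CPM, a ratio of 1.21 (1.11 to 1.32). Complex II in the lumen was thus split, with Sdha at 1.21 and Sdhc at 1.11 against Sdhb at 0.705 and Sdhd at 0.749. Cox4i1, the most abundant member in the lumen, was 1816 and 1452 CPM in luminal barcodes, a ratio of 0.80 (0.784 to 0.815), and level in stroma at 1070 and 1058 CPM. Ndufc2 at 0.756 and Atp5j at 0.801 were also on the lower side.

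The upstream sequences of 4 luminal members are shown because these genes differed in opposite directions within a class: Ndufa11 and Atp5g2 were on the higher side and Ndufb8 and Cox7a2l on the lower. The 4 are a selection: Atp5g2 did not reach 1.5-fold, and Ndufaf7, called lower, is not shown. Each line is the 250 bases before the RefSeq start of the gene, 5′ to 3′ on the gene's strand, in build GRCm38.p6. Capitals mark matches to any of 5 motifs searched on both strands.
Ndufa11, chr17:56717512-56717761, plus strand: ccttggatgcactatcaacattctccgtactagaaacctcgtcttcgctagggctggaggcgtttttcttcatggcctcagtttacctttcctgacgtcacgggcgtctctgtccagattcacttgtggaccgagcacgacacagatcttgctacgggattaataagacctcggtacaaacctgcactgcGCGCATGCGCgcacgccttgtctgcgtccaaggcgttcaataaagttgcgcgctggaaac
Atp5g2, chr15:102671048-102671297, minus strand: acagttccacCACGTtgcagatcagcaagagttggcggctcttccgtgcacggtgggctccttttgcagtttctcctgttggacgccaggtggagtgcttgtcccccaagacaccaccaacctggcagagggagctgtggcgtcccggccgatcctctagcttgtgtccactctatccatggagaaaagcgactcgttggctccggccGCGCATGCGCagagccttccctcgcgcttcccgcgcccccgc
Ndufb8, chr19:44555443-44555692, minus strand: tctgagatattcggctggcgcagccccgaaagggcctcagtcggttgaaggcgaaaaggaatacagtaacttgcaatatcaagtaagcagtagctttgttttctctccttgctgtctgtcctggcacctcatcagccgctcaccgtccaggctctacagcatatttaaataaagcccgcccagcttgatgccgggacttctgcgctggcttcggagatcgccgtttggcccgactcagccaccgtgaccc
Cox7a2l, chr17:83514334-83514583, minus strand: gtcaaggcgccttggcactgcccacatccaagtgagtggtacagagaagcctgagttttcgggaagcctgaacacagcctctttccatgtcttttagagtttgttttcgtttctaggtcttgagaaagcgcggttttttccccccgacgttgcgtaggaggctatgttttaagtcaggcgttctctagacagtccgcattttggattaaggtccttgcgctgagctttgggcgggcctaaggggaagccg
The motifs were the core for NRF1, a factor known to bind promoters of respiratory genes (GCGCATGCG), the ETS core for GABP (CCGGAAG), the YY1 core (AAGATGGCG), the hypoxia-response core (ACGTG) and the TATA box (TATAAA). The NRF1 core reads nearly alike on both strands, so its 2 matches overlap in Ndufa11 and in Atp5g2. Atp5g2 also holds the hypoxia-response core, and Ndufb8 and Cox7a2l hold none of the 5 in this window. Of the 98 members, 79 matched the RefSeq promoter table. Over windows from 250 bases before to 50 after the start, the NRF1 core was in 12.7% of those members and 1.95% of all genes, the GABP core in 27.8% and 9.93%, and the YY1 core in 10.1% and 1.64%. The hypoxia-response core was in 22.8% and 21.8%, and the TATA box in 11.4% and 15.7%. The 10 members with an NRF1 core included Ndufa11, Atp5g2, Atp5k and Ndufaf4, and also Atp5l, Ndufa8 and Uqcr11, whose luminal ratios were 0.922, 0.955 and 0.907. Members not matched there include Cox4i1, Cox4i2, Cox6c and Ndufa4l2.

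In stroma the widest gap with deep counts was that of Cox6c. It was 1293 CPM (control) and 781.2 CPM (library labelled knockout), giving 0.604 (0.582 to 0.627), and luminal Cox6c was 578 CPM in both. In glandular barcodes it was 688.9 and 661.9 CPM, and in other barcodes 653.3 and 494.6 CPM. In the control stroma Cox6c stood above Cox4i1 at 1070 CPM, and in the library labelled knockout below Cox4i1 at 1058 CPM. Over UMI tertiles cut within each library, stromal Cox6c ran from 1218 to 1363 CPM in the control and from 758.9 to 851.2 CPM in the library labelled knockout. The tertiles do not match depth between the libraries: their medians ran from 6200.5 to 11857 UMIs in the control and from 2463.5 to 5040 UMIs in the library labelled knockout.

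Sdhaf4, which helps load the flavoprotein Sdha during assembly of complex II, was 31.4 and 15.5 CPM in stroma, a ratio of 0.493 (0.374 to 0.639). Sdha itself was 77.2 and 60.9 CPM there, a ratio of 0.789 (0.688 to 0.902). The higher side of stroma was modest. Ndufaf4, an assembly factor of complex I, was 36.2 and 49.3 CPM, a ratio of 1.36 (1.16 to 1.59), and Ndufa3 was 66.9 and 85.1 CPM, a ratio of 1.27 (1.13 to 1.43). Cox6a1, the common form of subunit VIa, was 159.8 and 194.5 CPM, a ratio of 1.22 (1.13 to 1.31). Atp5k at 1.25 (1.12 to 1.39), Ndufb1-ps at 1.21 (1.08 to 1.35), Uqcrq at 1.10, Atp5d at 1.08 (1.04 to 1.13) and Cox8a at 1.07 were also among the 8 highest by the interval bound nearest 1. On the lower side, the members ranked next by the same bound included Ndufa4 at 0.743 (0.697 to 0.792), Cox7a2l at 0.791, Atp5g3 at 0.785 and Atp5c1 at 0.808.

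On the scale of all UMIs, 90 members had enough UMIs in both classes, and 45 of them had ratios below 1 in luminal and stromal barcodes alike and 9 above 1 in both. Another 23 were above 1 in luminal and below 1 in stromal barcodes, and 12 the reverse. Counting only members whose intervals left out 1 on both sides, 9 were higher in the lumen and lower in stroma, and 2 were lower in the lumen and higher in stroma. Shares over all genes are not given beside these counts, so they do not set the members apart. The median over all genes with enough UMIs was itself below 1, at a log2 ratio of -0.11 in luminal and -0.02 in stromal barcodes.

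**Figure D3:**
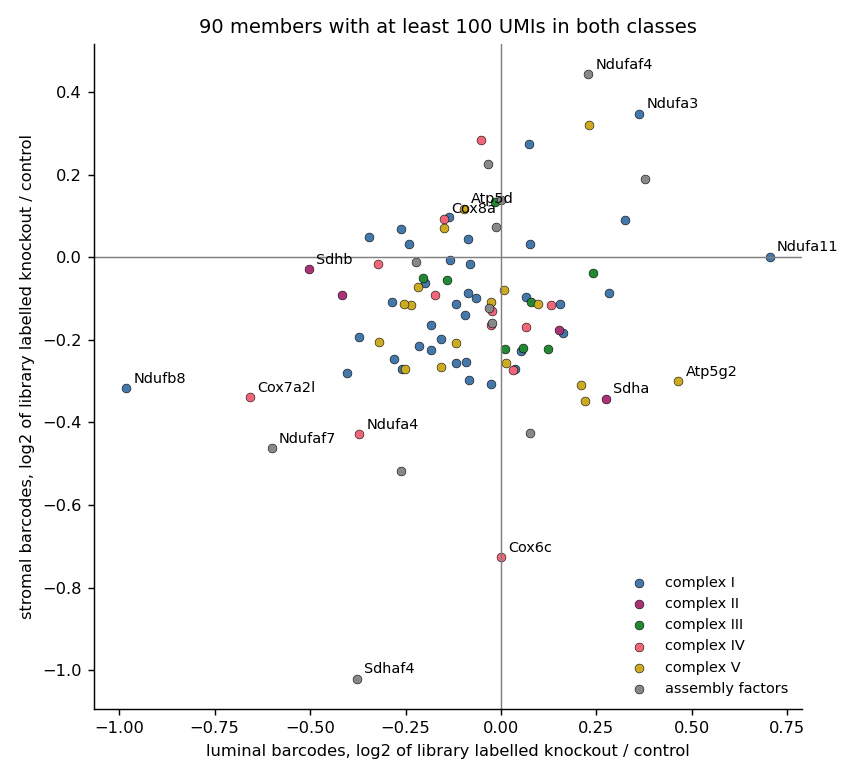
Log2 ratio of the library labelled knockout over the control for 90 members in luminal barcodes (x) and stromal barcodes (y), coloured by complex, scaled to all UMIs. Ndufa11 lies far right at a stromal value near 0, Cox6c far down at a luminal value near 0, Ndufb8 far left, and Atp5g2 and Sdha in the quadrant with luminal values above 0 and stromal values below it.

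Scaled to all UMIs, 78 members had enough UMIs in all 4 classes, of which 31 had ratios below 1 in every class and 2, Ndufa11 and Ndufa3, above 1 in every class, with Ndufa11 level in stroma at 1.00. For 8 members the interval lay below 1 in every class: Ndufa4, Ndufb8, Ndufc2, Ndufab1, Atp5g1, Atp5h, Atp5j2 and Atp5o. The matching counts over all genes are not given, so these counts are not read as particular to the members. Ndufa4 went from 742.6 to 574.1 CPM in luminal, from 834.3 to 582.8 CPM in glandular, from 356.9 to 265.3 CPM in stromal and from 368.2 to 210 CPM in other barcodes. Its ratios were 0.773 (0.750 to 0.797), 0.699 (0.623 to 0.782), 0.743 (0.697 to 0.792) and 0.570 (0.486 to 0.667). Ndufa4 was thus lower in the library labelled knockout in all 4 classes, beyond counting error.

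In glandular barcodes the lowest members by the interval bound nearest 1 were Ndufa4, Ndufb8 at 0.694 (0.606 to 0.792), Ndufab1, the acyl carrier protein of complex I, at 0.680 (0.556 to 0.827), and Ndufs5 at 0.704 (0.585 to 0.843). On the higher side were Atp5mpl, a small membrane protein of the ATP synthase, at 1.30 (1.12 to 1.52) and Cox5a, which lies on the matrix side of complex IV, at 1.16 (1.04 to 1.30). Ndufaf4 gave the highest ratio on few counts (62 and 53 UMIs), 1.48 (1.00 to 2.17). The other barcodes mix cell types, with 154 and 195 leukocyte-marked barcodes among those outside the epithelium, and the part of that makeup in their ratios was not tested. The 3 called lower there were Ndufa4, Ndufc2 at 0.649 (0.498 to 0.837) and Ndufb8 at 0.667 (0.538 to 0.821). Atp5g1 followed at 0.714 (0.622 to 0.816) and Cox5a at 0.718 (0.626 to 0.822). Ndufa6 gave the highest ratio, 1.40 (1.13 to 1.75).

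The most abundant member of each complex was checked for its level across classes. In complex III, Uqcrh, the hinge protein beside cytochrome c1, was 876.1 and 882 CPM in luminal, 920.4 and 947.1 CPM in glandular, 708.8 and 608.1 CPM in stromal and 559.8 and 558.7 CPM in other barcodes. Uqcrq was the only one of the 8 complex III genes with a stromal ratio above 1, at 1.10 (1.04 to 1.16). In complex V, Atp5b, the catalytic beta subunit, was 649.7 and 652.7 CPM in luminal and 506.2 and 479.1 CPM in stromal barcodes. Its partner in the catalytic head, Atp5a1, was 620 and 625.8 CPM in luminal and 500.3 and 418.9 CPM in stromal barcodes. On the scale of all UMIs, the Atp5a1 and Atp5b transcripts were therefore level between the libraries in the lumen. Atp5e, a small subunit of the central stalk, gave 612.8 and 602 CPM in luminal and 527.9 and 489.5 CPM in stromal barcodes. In complex I, Ndufa13 followed Ndufa11, at 549.7 and 506.4 CPM in luminal and 322.5 and 298.3 CPM in stromal barcodes, and Ndufa2 gave 419.9 and 355.2 CPM and 290.2 and 296.8 CPM. Among the assembly factors, Ndufaf8 was 74.7 and 74.0 CPM in luminal and 48.0 and 50.5 CPM in stromal barcodes, and Ndufaf2 was 20.9 and 27.2 CPM and 47.9 and 54.6 CPM.

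On the scale of all UMIs, the mt- genes were lower together with the members in luminal, stromal and other barcodes, and higher in glandular barcodes, where the members were lower. They took 5.34% of luminal UMIs in the control and 4.46% in the other library, a ratio of 0.836 (0.833 to 0.839), and 3.79% and 3.402% in stroma, 0.898 (0.893 to 0.903). In glandular barcodes they went the other way, from 3.54% to 4.13%, a ratio of 1.17 (1.15 to 1.18), while the members there gave 0.912. In other barcodes they took 3.23% and 3.18%. A limit of 15% mt- UMIs was part of the filter, so these shares are bounded. Per mt- UMI there were 0.566 member UMIs in the control lumen and 0.639 in the library labelled knockout. The glandular figures were 0.986 and 0.771, and the stromal ones 0.552 and 0.555. Glandular barcodes of the control thus combined the highest nuclear-encoded share with an mt- share below that of stroma.

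For complex I the glandular ratio of nuclear-encoded to mt- UMIs was 1.65 in the control and 1.18 in the library labelled knockout, and the luminal ratio 0.833 and 0.986. The luminal mt- genes of complex IV were lower at 0.793 (0.789 to 0.796), where the nuclear-encoded genes of that complex gave 0.902. Of single mt- genes, luminal mt-Nd3 gave 0.637 (0.615 to 0.659) and mt-Cytb, the only mt- gene of complex III, 1.02 (1.01 to 1.04). Glandular mt-Nd4 gave 1.36 (1.29 to 1.45) and mt-Nd4l 2.15 (1.63 to 2.85). Across barcodes of a class, Spearman's rho between the members' share and the mt- share ran from -0.12 (102 glandular barcodes of the control) to 0.33 (334 other barcodes of the control). Both shares come from the same barcode and depth, so these are descriptions.

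**Figure D4:**
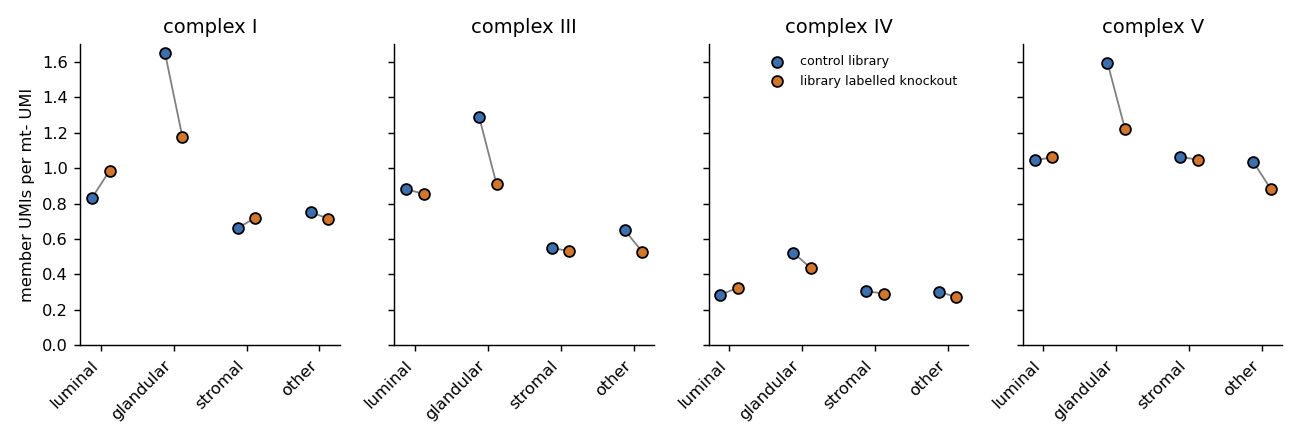
UMIs of nuclear-encoded members per UMI of the mt- genes of the same complex, for complexes I, III, IV and V in 4 classes of barcodes of the control library and the library labelled knockout; lines join the 2 libraries. The control glandular point stands highest in every complex (1.65 for complex I) and the glandular point of the library labelled knockout lies below it.

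Tissue-restricted isoforms made up little of the members' RNA. Cox8c, a testis form, had 0 UMIs in both libraries, and Cox8b, a muscle form, had 1 UMI. Cox7b2 had 9 UMIs in control stroma and 2 in that of the library labelled knockout. Cox7a1, the heart and muscle form of subunit VIIa, was 4.70 and 2.94 CPM in luminal and 12.6 and 6.82 CPM in glandular barcodes, the latter from 16 and 5 UMIs, where Cox7a2 was 687.3 and 571.8 CPM. The common forms thus outnumbered these isoforms by far in each class. Cox6a2, known as a heart and muscle form, was found in barcodes carrying leukocyte markers (Ptprc, Tyrobp, Fcer1g, Nkg7 and Coro1a): these held 9 of the 10 control UMIs and all 13 of the library labelled knockout, in 7 of 154 and 7 of 195 barcodes. In the library labelled knockout, 12 barcodes carried leukocyte and endothelial markers at once, and 1 of them held 2 of those 13 UMIs.

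Cox4i2 and Ndufa4l2 reached their highest levels in a small set of barcodes with pericyte markers. Barcodes outside the epithelial classes with Rgs5, Notch3, Kcnj8 and Cspg4 together at 10 or more per 10000 UMIs, genes known from pericytes, the support cells of small vessels, numbered 36 in the control and 23 in the library labelled knockout. They held Rgs5 at 2924 and 3406 CPM, against 0.390 and 1.43 CPM in stromal barcodes with no other marker set, and Pecam1, Ptprc and Epcam at 0 UMIs in both libraries. Of the 23 barcodes, 16 also met a set of smooth muscle markers (Myh11, Cnn1, Des and Actg2), as did 6 of the 36.

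Cox4i2, the form of subunit IV known from lung and induced by low oxygen, was 320.6 CPM (248.5 to 407.2, from 67 UMIs) in the control pericyte-marked barcodes and 319.3 CPM (165 to 557.8, from 12 UMIs) in the others. In stroma with no other marker set it was 10.0 CPM (8.89 to 11.3) and 2.87 CPM (1.24 to 5.65). Endothelial-marked barcodes held 0 UMIs of it in both libraries, and luminal barcodes 0.535 and 0.779 CPM. At least 1 Cox4i2 UMI was seen in 32 of 36 and 9 of 23 pericyte-marked barcodes, at median depths of 5702 and 1574 UMIs. The luminal barcodes, which serve as the background for free RNA, had it in 0.645% and 0.908% at greater depth. Cox4i1 was present beside it, at 1149 and 1357 CPM, so both forms were found there. Most Cox4i2 UMIs still lay outside these barcodes, which held 67 of the 372 of the control.

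Ndufa4l2, a paralogue of Ndufa4 known as a target of the hypoxia factor HIF-1, was 746.5 CPM (634 to 873.3) and 745.1 CPM (495.1 to 1077) in pericyte-marked barcodes, and 2.16 and 2.51 CPM in stroma with no other marker set. These few barcodes held 156 of the 220 Ndufa4l2 UMIs of the control and 28 of the 40 of the library labelled knockout, and luminal barcodes held 0 in both. Ndufa4 was low where Ndufa4l2 was high. It had 8 UMIs, 38.3 CPM (16.5 to 75.4), in the control and 4 UMIs, 106.4 CPM (29.0 to 272.5), in the library labelled knockout. In stroma with no other marker set Ndufa4 was 351.8 and 254.4 CPM, in endothelial-marked barcodes 296.1 and 141 CPM, and in barcodes meeting the smooth muscle set without Des 1037 and 470.2 CPM. Pericyte-marked barcodes thus had more Ndufa4l2 than Ndufa4 in both libraries, although the Ndufa4 interval of the second overlapped that of its endothelial-marked barcodes (86.1 to 217.8 CPM). In the 30 and 7 pericyte-marked barcodes that met no other marker set, Ndufa4l2 was 743.8 and 858.6 CPM. The members' sum was 2.08% and 2.58% of UMIs in pericyte-marked barcodes, beside 2.08% and 1.85% in stroma with no other marker set, and the mt- share was 5.33% and 5.10% beside 3.77% and 3.32%.

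**Figure D5:**
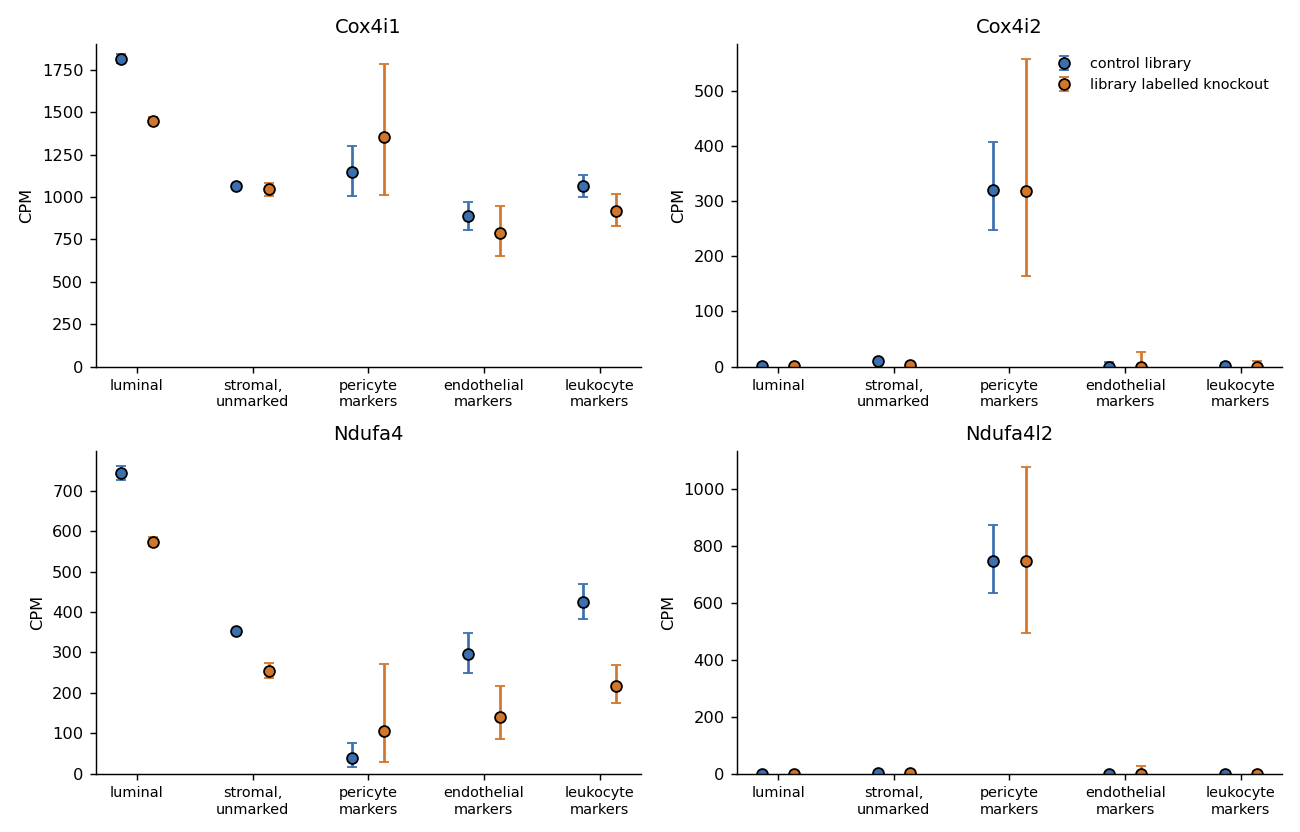
Levels (CPM, linear axes from 0) of Cox4i1, Cox4i2, Ndufa4 and Ndufa4l2 in luminal barcodes, in stromal barcodes with no other marker set and in barcodes with pericyte, endothelial or leukocyte markers; bars are exact Poisson 95% intervals that cover counting error only. Cox4i2 and Ndufa4l2 stand up in the pericyte-marked barcodes of both libraries, where Ndufa4 is at its lowest (38.3 and 106.4 CPM).

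The stromal call on Cox4i2 was made at 11.2 and 4.57 CPM (329 and 18 UMIs), a ratio of 0.410 (0.240 to 0.658). Of the 4 pericyte markers over the stromal class, Rgs5 was 14.03 and 14.73 CPM and Kcnj8 1.80 and 3.05 CPM, while Notch3 was 3.12 and 2.29 CPM and Cspg4 3.96 and 3.05 CPM, lower like Cox4i2. Their part in the call was not tested. In stromal barcodes with no other marker set Cox4i2 was 10.0 and 2.87 CPM, the latter from 8 UMIs. These were 3039 of 3221 stromal barcodes in the control but 721 of 1049 in the library labelled knockout, so the 2 sets are not alike. The smooth muscle set, which includes Des, was met by 159 and 323 stromal barcodes, and stromal Des was 418.8 and 753.5 CPM. Stromal Cox4i2 over the UMI tertiles, cut within each library and so not matched in depth, was 8.89 to 15.1 CPM (control) and 2.66 to 10.0 CPM (library labelled knockout). Its ranges thus overlapped.

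Genes of neighbouring functions were counted by the same 1.5-fold rule, to be read beside the shares over all genes: 8.84% higher and 19.9% lower in luminal barcodes, 10.3% and 15.7% in stroma, 7.98% and 8.71% in glandular barcodes and 8.70% and 7.35% in other barcodes. In other barcodes 9 of 55 mitochondrial ribosome genes, 4 of 12 glycolytic genes and 3 of 13 citric acid cycle genes were lower, and 0 of each were higher. The remaining lists there had few calls or none. Lower were 1 of 7 chain genes outside the prefixes, 1 of 35 proteasome genes and 1 of 85 cytosolic ribosome genes. Of 17 import genes, 8 assembly factors outside the prefixes and 4 regulators of mitochondrial biogenesis, 0 were lower. In all these lists 0 were higher. The luminal and stromal calls were as follows. Of 9 chain genes outside the prefixes (such as Cyc1, Cycs and the Etf genes), 0 were higher and 1 lower in luminal barcodes, Dhodh, the quinone-linked enzyme of pyrimidine synthesis, at 19.6 and 11.4 CPM. Of 25 assembly factors outside the prefixes, 22 had enough luminal UMIs, with 1 higher (Sco1, 4.60 and 8.93 CPM) and 2 lower (Cox17 and Timmdc1). Cox17, the copper chaperone of complex IV, was 130.5 and 81.5 CPM in luminal barcodes, a ratio of 0.625 (0.578 to 0.675), and 244.9 and 111.9 CPM in glandular barcodes, a ratio of 0.457 (0.354 to 0.585). It was called lower in both epithelial classes. Of 24 such genes in stroma 0 were higher and 2 lower, Bcs1l, which inserts the Rieske protein into complex III, and Nubpl, which supplies iron-sulfur clusters to complex I, at 0.623 and 0.412.

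Among 13 citric acid cycle genes 0 were higher and 0 lower in the lumen. In stroma 0 were higher and 2 lower, Fh1, fumarate hydratase, at 67.1 and 39.9 CPM and Suclg2, a subunit of succinyl-CoA synthetase, at 49.0 and 23.1 CPM. Hk2, an inducible hexokinase, was 35.0 and 93.3 CPM in luminal barcodes, a ratio of 2.67 (2.37 to 3.02), and 14.5 and 31.0 CPM in stroma, a ratio of 2.13 (1.73 to 2.61). Of 13 glycolytic genes with enough luminal UMIs, Hk2 was the 1 called higher and Pfkl the 1 called lower, with a median log2 ratio of 0.01. Of 14 with enough stromal UMIs, Hk2 was the 1 called higher and 2 were called lower. In stroma 10 of the 14 had ratios below 1, and the median log2 ratio was -0.17. Of 78 mitochondrial ribosome genes 1 was higher and 2 lower in both luminal and stromal barcodes, with median log2 ratios of 0.08 and -0.09. Of 23 import genes with enough UMIs, 0 were called in the lumen, and 1 was higher and 1 lower in stroma. Among 13 regulators of mitochondrial biogenesis, Twnk, the mitochondrial DNA helicase, was the 1 called higher in the lumen, at 12.8 and 21.7 CPM. Proteasome genes, 37 with enough luminal UMIs, gave 0 higher and 3 lower. In stroma 38 had enough UMIs, with 0 higher and 1 lower.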

How the data were processed

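Uteri of mice at gestational day 3.5 gave 1 10x single-cell library per genotype. The deposited values are whole-number UMI counts per gene and barcode, which per the file headers were written by Cell Ranger 7.0.1. The submitters' processing notes name Seurat and the build mm39, whose genome was not used here. All deposited barcodes entered, and no normalized value was used.

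Barcodes with at least 500 genes and at most 15% mt- UMIs were kept. Doublets were removed by Scrublet score at 0.8% per 1000 barcodes (159 in the control and 70 in the library labelled knockout). Classes rest on marker sums of at least 10 per 10000 UMIs. Counts were summed per class, divided by the class total (CPM), and compared as ratios with exact conditional binomial 95% intervals; levels carry exact Poisson intervals. With 1 library per group there is no test, and both kinds of interval cover counting error only, since libraries, and not barcodes, are the replicates. The ratio scripts were tested on simulated data. Symbols are those of the files, and how well reads of related genes such as Atp5g1 to Atp5g3 were told apart was not checked.

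The members, lists and classes were chosen with earlier results of these data known. Genes were named by rule: the 3 highest of each complex, the 8 highest and 8 lowest ratios in luminal and stromal barcodes and 4 and 4 in glandular and other ones, ranked by the interval bound nearest 1, every tissue isoform, the 5 and 5 most uneven between lumen and stroma, and members with 0 UMIs. The result of 1 member that the rule names is not reported here. Outside it, Sdhd, Ndufaf6, Sdhaf3, Atp5a1, Ndufa8, Atp5h, Atp5j2 and Atp5o were named after their values were seen. Alternatives covered doublets, mt- limits, scaling, averaging over barcodes, thinning to 2000 UMIs, a window of 3000 to 8000 UMIs, class sums, UMI minimums and the fold. Promoter sequences came from RefSeq (GRCm38.p6). Python 3.11.15, numpy 2.4.6, scipy 1.17.1, pandas 2.3.3, scanpy 1.11.5 and matplotlib 3.10.9 were used.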

Additional observations from a re-analysis of the deposited data

Results flagged for a closer look

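Some members were higher in the library labelled knockout in one class and lower in another, with both counting intervals on opposite sides of 1. These differences between classes were not tested, since each group is 1 library. The luminal ratio of Atp5g2 was 1.697 times its stromal ratio and 1.58 times its ratio in other barcodes. The luminal ratio of Sdha was 1.534 times its stromal ratio. For Ndufs3, the luminal ratio was 1.527 times the glandular one. Cox5a gave 1.526 for luminal over other barcodes and 1.618 for glandular over other barcodes. The summed mt- genes were higher in glandular barcodes of the library labelled knockout, with a ratio of 1.167, and lower in luminal ones, with 0.836.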

How the results depend on the processing

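Scaled by the median of ratios, the luminal sum reversed to 1.022 and the luminal median log2 ratio to 0.03151; the glandular, stromal and other sums were 0.9322, 0.9142 and 0.8577, with 1 glandular member higher and 1 luminal member lower. All other sums in every setting run were below 1. Among barcodes of 3000 to 8000 UMIs (55 luminal and 11 glandular in the control), the luminal, glandular, stromal and other sums were 0.8725, 0.9302, 0.8469 and 0.7308, and the median log2 ratios -0.1425, -0.03019, -0.2386 and -0.4325, with 3 luminal members higher, and 2 glandular, 6 stromal and 15 other ones lower. Without mt- and ribosomal protein genes, a scaling chosen after seeing the data, the luminal, glandular, stromal and other sums were 0.9666, 0.9424, 0.8496 and 0.853, the stromal median was -0.2044, and 1 glandular member was higher. Without mt- genes alone, the luminal sum was 0.9357. At most 5% mt- UMIs gave 0.9356 in luminal, 0.9131 in stromal and 0.8585 in other barcodes, with 2 glandular and 1 luminal member lower. Class sums of at least 20 gave 0.928 in stromal and 0.901 in other barcodes and a stromal median of -0.08402, with 3 glandular and 7 other members lower. Thinning to 2000 UMIs gave 0.9346 in luminal and 0.9192 in stromal barcodes and a median of -0.2483 in other ones, with 1 glandular and 2 luminal members higher, and 2 glandular and 0 other members lower. The mean over barcodes gave a luminal sum of 0.9308 and 1 glandular member lower. No doublet removal gave a glandular sum of 0.9293 and 1 glandular member higher. Stroma with no other marker set, also chosen after seeing the data, gave 0.8906. At 2-fold, 0 luminal members were higher, and 0 luminal and 0 other ones lower. At 20 UMIs, 2 luminal, 3 glandular and 2 other members were higher, and 3 glandular and 8 other ones lower. The causes were not tested.

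Luminal Ndufa11 (1.61 to 1.76) and Ndufb8 (0.480 to 0.548) stayed past 1.5-fold in 11 of 11 alternatives, and stromal Cox6c (0.565 to 0.633), Sdhaf4 (0.464 to 0.561) and Cox4i2 (0.219 to 0.473) in 12 of 12. Luminal Cox7a2l (0.542 to 0.697) stayed in 9 of 11. In other barcodes Ndufa4 and Ndufc2 stayed in 9 of 11 and Ndufb8 in 7 of 11. No paired analysis was possible because each group is 1 library. Glandular barcodes and the assembly factors are limited by few UMIs, and no alternative replaces a second library.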
